A study of Mus musculus with 20 samples.

Results

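The mRNA levels of the FoxO transcription factors Foxo1, Foxo3 and Foxo4 and of 7 genes that FoxO factors activate and insulin represses (Sesn1, Sesn3, Angptl4, Pdk4, Txnip, Klf15 and Cdkn1a) were followed in the liver and the epididymal fat of mice with a normal or an altered insulin receptor. The 10 genes were taken by symbol from the deposited count tables, which hold 15608 genes for liver and 20738 for fat. All 10 are in both tables, and all 10 passed the filter on low counts in each tissue. Poly-A RNA was sequenced from 2-month-old male mice in 4 groups of 5 libraries, 20 in all. These were liver of wild-type (WT) mice, liver of IR 4A mice, epididymal white adipose tissue (eWAT, fat that lies against the epididymis) of WT mice, and eWAT of IR 4A mice. IR 4A names an insulin receptor whose binding motif for MAD2 was changed. MAD2 is a mitotic checkpoint protein that also helps to internalise the receptor, and the series asks how that endocytosis bears on metabolism. The labels give each library a replicate number but name no animal, strain, feeding state or hour of collection, so the p-values rest only on how these libraries varied, which may be technical.

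FoxO factors are the main carriers of insulin's effect on transcription in liver and fat. When insulin is low they sit in the nucleus and activate genes of fuel use, stress defence and cell cycle arrest. When insulin binds its receptor, the kinase Akt phosphorylates them, 14-3-3 proteins hold them in the cytoplasm, and their targets fall. The mRNA of a FoxO gene therefore does not report how much of its protein is active, and the targets answer to other signals as well: Angptl4 and Pdk4 to PPAR factors, Klf15 to glucocorticoids, Txnip to glucose and Cdkn1a to p53.

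The start-site windows of the members were read from RefSeq (mouse build GRCm38.p6), from 250 bases before to 50 bases after each start. A window was found for 8 of the 10 genes, and with the alternative starts of Sesn1 and Cdkn1a there were 10 windows. Angptl4 and Foxo4 were not matched. Both strands were searched for the forkhead core TGTTTAC, the insulin response core TGTTTTG, the E-box CACGTG, which is part of the element that glucose-sensing factors bind, and the glucocorticoid element ACANNNTGT. Over all 32851 windows of the same length these letters occurred in 3.65%, 6.28%, 7.15% and 6.85%, and in the members' windows they occurred in 2, 0, 1 and 1 of 10. The windows of Sesn1, Txnip and Klf15 are shown because they are the ones that held any of the searched letters, and because these 3 genes differed between the tissues. Each is given 5' to 3' on the strand of the gene, with the matches in capitals, and a match is only a description of the letters.
Sesn1, chr10:41810324-41810623, plus strand: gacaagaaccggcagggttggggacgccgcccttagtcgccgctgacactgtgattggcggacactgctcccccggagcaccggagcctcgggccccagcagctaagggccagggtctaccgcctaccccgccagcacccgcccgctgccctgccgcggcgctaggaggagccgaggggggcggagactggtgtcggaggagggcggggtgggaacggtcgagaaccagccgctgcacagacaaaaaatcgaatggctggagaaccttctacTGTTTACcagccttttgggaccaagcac
Txnip, chr3:96557707-96558006, plus strand: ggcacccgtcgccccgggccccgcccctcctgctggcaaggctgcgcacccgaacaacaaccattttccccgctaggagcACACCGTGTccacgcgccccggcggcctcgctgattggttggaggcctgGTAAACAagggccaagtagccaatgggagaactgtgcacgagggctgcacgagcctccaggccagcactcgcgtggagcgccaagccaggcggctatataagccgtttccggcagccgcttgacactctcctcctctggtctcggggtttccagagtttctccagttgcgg
Klf15, chr6:90462326-90462625, plus strand: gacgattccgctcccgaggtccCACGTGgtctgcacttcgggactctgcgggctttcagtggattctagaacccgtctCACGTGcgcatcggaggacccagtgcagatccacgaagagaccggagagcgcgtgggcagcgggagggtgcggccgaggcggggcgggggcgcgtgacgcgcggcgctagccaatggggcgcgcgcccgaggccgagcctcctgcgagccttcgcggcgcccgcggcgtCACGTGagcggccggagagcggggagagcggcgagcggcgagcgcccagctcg
In the Sesn1 window the forkhead core began at position 22 counted from the start site. In the Txnip window it lay on the opposite strand at position -121, with the glucocorticoid element at -170. The Klf15 window held the E-box 3 times, at -228, -172 and -3.

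The liver libraries held 17989420 to 24238359 counts and the eWAT libraries 13651874 to 21615358, and levels are given as CPM (read counts relative to the library total) scaled by TMM within a tissue. All 8 hepatocyte markers were detected in every liver library. The 8 adipocyte markers (among them Adipoq, Lep and Plin1) were detected in every eWAT library, but 14 of 15 epididymis markers and all 15 testis and sperm markers were detected in every eWAT library too. Their summed levels were 4551 to 18644 CPM in WT and at 18637 to 25861 CPM in IR 4A for epididymis, and 169 to 6831 CPM in WT and at 146 to 3201 CPM in IR 4A for testis and sperm. The adipocyte sum itself ran from 8012 to 26101 CPM in WT and from 2399 to 13265 CPM in IR 4A. In liver, 15 genes of the acute phase response summed to 100610 CPM in WT 1 and 55328 CPM in WT 3, against 17962 to 25177 CPM in the other WT libraries and 11687 to 22031 CPM in IR 4A.

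No member passed the test for an IR 4A change in liver. Sesn1 and Sesn3 stood higher in IR 4A and Angptl4 lower, each at an unadjusted p under 0.05, while Foxo1 was level. With edgeR's quasi-likelihood test 0 of 10 members had an adjusted p under 0.05, where 0.00805% of the 12421 tested genes did. DESeq2 and limma voom also called 0 of the 10, but they called 407 and 4 genes in all. At an unadjusted p under 0.05 there were 3 of 10 members, beside 18.1% of all tested genes. For no member were the WT and IR 4A libraries fully apart, which was so for 3.51% of tested genes. The members' median log2 fold change was 0.10, with 7 above 0 and 3 below, beside a median of 0.0048 over all tested genes. Markers of other liver cells moved as well. The 11 of 12 progenitor and fibroblast markers in the liver table summed to 183 to 209 CPM in WT and to 217 to 298 CPM in IR 4A, fully apart, with IR 4A 1 the lowest IR 4A library. The 8 stellate cell markers summed to 106 to 155 CPM in WT and to 123 to 225 CPM in IR 4A. Their part in the members' values was not tested.

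**Figure D1:**
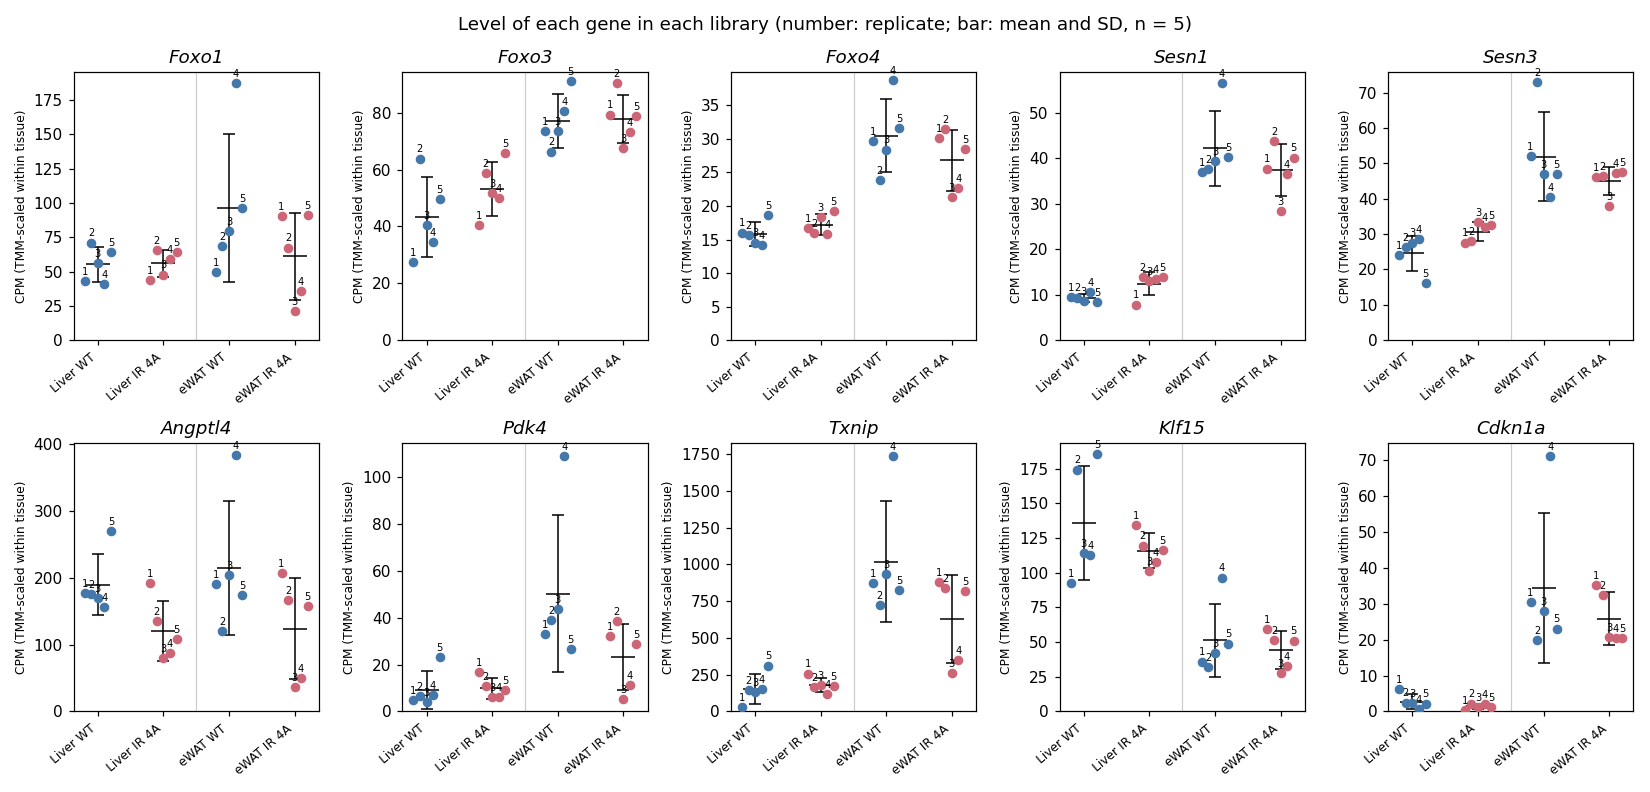
Level of each of the 10 genes in every library, in TMM-scaled CPM on a linear axis that starts at 0, with liver left of the grey line and eWAT right of it. Points are libraries numbered by replicate (blue WT, red IR 4A) and bars are the mean and SD of 5. Liver and eWAT were scaled apart, so heights are read within a tissue, where WT and IR 4A overlap for every gene and eWAT WT 4 is the highest library for 8 of the 10 genes.

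Among the FoxO factors in liver, Foxo1, which drives glucose production there, was at 43.5, 71.2, 56.2, 41.2 and 64.3 CPM in WT 1 to 5 and at 43.8, 65.5, 47.9, 59.0 and 64.5 CPM in IR 4A 1 to 5. The groups covered nearly the same range, and the log2 fold change was 0.02 (SE 0.16, adjusted p = 0.963). Foxo3, a factor of stress defence and autophagy, was at 27.5, 63.9, 40.6, 34.4 and 49.6 CPM in WT and at 40.4, 58.8, 51.6, 50.05 and 65.7 CPM in IR 4A. The lowest libraries were WT 1 and WT 4, but WT 2 was above all IR 4A libraries except IR 4A 5. Its log2 fold change was 0.30 (SE 0.20, adjusted p = 0.448), and 0.11 without the acute-phase-rich WT 1 and WT 3. Foxo4, the X-linked member of the family, was the steadiest, at 14.2 to 18.7 CPM in WT and at 15.8 to 19.3 CPM in IR 4A, with a log2 fold change of 0.12 (SE 0.09, adjusted p = 0.515). Over the 10 liver libraries Foxo1 and Foxo3 went up and down together (Pearson r = 0.832 on log2 CPM, permutation p = 0.00308, adjusted p = 0.0462 over the 45 pairs of members, and r = 0.724 without the 2 outermost libraries). By rank the same pair had rho = 0.867 (permutation p = 0.00228, adjusted p = 0.0513).

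The sestrins, stress-induced proteins that hold back the growth kinase mTORC1, both had a higher mean in IR 4A liver. Sesn1 was at 9.42, 9.39, 8.60, 10.6 and 8.42 CPM in WT and at 7.85, 13.8, 12.9, 13.5 and 14.0 CPM in IR 4A. Apart from IR 4A 1, which was the lowest of all 10 libraries, every IR 4A library lay above every WT library. The log2 fold change was 0.42 (SE 0.15, adjusted p = 0.189 in edgeR's quasi-likelihood test). Without IR 4A 1 it was 0.55 and passed (adjusted p = 0.0377), in a fit that called 143 genes in place of 1. Sesn3, the form that liver FoxO1 is known to induce, was at 24.1, 26.4, 27.6, 28.5 and 16.2 CPM in WT and at 27.6, 27.9, 33.4, 31.9 and 32.5 CPM in IR 4A. The groups met between 27.6 and 28.5 CPM, with WT 5 far below the rest. Its log2 fold change was 0.32 (SE 0.13, adjusted p = 0.247), and 0.20 without WT 5.

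Angptl4, a secreted inhibitor of lipoprotein lipase that fasting raises, ran the other way in liver. It was at 177, 176, 169, 156 and 270 CPM in WT and at 192, 136, 80.2, 87.6 and 109 CPM in IR 4A. WT 5 was the highest library, and IR 4A 1 was the only IR 4A library inside the WT range. The log2 fold change was -0.65 (SE 0.23, adjusted p = 0.192 in edgeR's quasi-likelihood test), from -0.88 without IR 4A 1 (adjusted p = 0.054) to -0.49 without WT 5. Sesn3 and Angptl4 were opposed across the 10 liver libraries (r = -0.855, permutation p = 0.00017, adjusted p = 0.00765 over 45 pairs, and rho = -0.903, permutation p = 0.00082, adjusted p = 0.0369). Without the 2 outermost libraries r was -0.833. The permutations ignored genotype, and the means of these genes differed between genotypes in opposite directions. Their p-values can therefore include that difference, and the relation within a genotype was not tested. Sesn1 was low in the 5 WT libraries and IR 4A 1, the 6 with the most Angptl4, and high in the other four, so its values fell into separate groups and no pooled correlation is given.

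**Figure D2:**
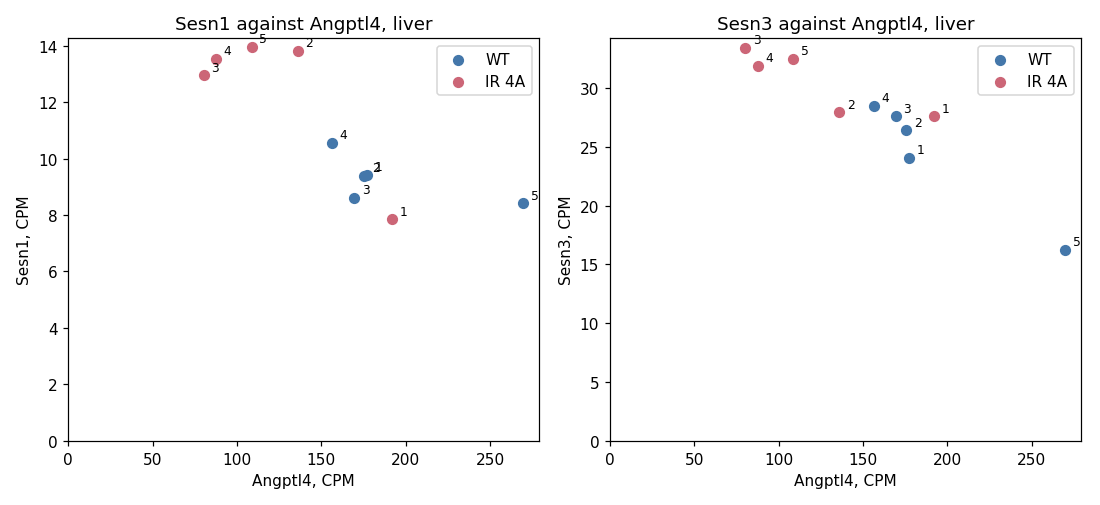
Liver levels of Sesn1 (left) and Sesn3 (right) against Angptl4 in the same library, all in TMM-scaled CPM on axes that start at 0. Points are libraries numbered by replicate (blue WT, red IR 4A). IR 4A 1 lies with the WT libraries in both panels, at 192 CPM of Angptl4 and 7.85 CPM of Sesn1, and WT 5 lies farthest right, at 270 CPM of Angptl4.

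The other liver targets varied more between libraries of one genotype than between genotypes. Pdk4, the kinase that turns off pyruvate dehydrogenase in fasting, was at 5.05, 6.68, 4.10, 7.03 and 23.4 CPM in WT and at 16.6, 11, 6.02, 6.31 and 9.01 CPM in IR 4A. WT 5 and IR 4A 1 stood out as high, the same pair that led Angptl4 in each genotype, and the log2 fold change was 0.08 (SE 0.45, adjusted p = 0.952). Txnip, which binds thioredoxin and limits glucose uptake, was at 27.8, 146, 134, 152 and 312 CPM in WT and at 258, 166, 181, 120 and 174 CPM in IR 4A. The lowest value was in WT 1, the library richest in acute phase transcripts, and the highest again in WT 5, so that the log2 fold change was 0.22 (SE 0.44, adjusted p = 0.827), and -0.18 without WT 1 and WT 3. Klf15, a factor that fosters amino acid breakdown and glucose production, was at 92.4, 174, 114, 112 and 185 CPM in WT and at 134, 120, 102, 108 and 117 CPM in IR 4A. Its IR 4A libraries all lay inside the WT range (log2 fold change -0.23, SE 0.18, adjusted p = 0.522). Cdkn1a, which encodes the cell cycle inhibitor p21, was scarce, at 6.23, 2.48, 2.40, 0.555 and 2.19 CPM in WT and at 0.401, 2.21, 1.17, 2.07 and 1.16 CPM in IR 4A. WT 1 alone was high, and the log2 fold change of -0.99 (SE 0.53, adjusted p = 0.346) was -0.33 without WT 1 and WT 3. The part that the acute phase response of those libraries has in these values was not tested.

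How far a member varied within a group set what could be seen. Over the 5 WT livers the coefficient of variation was 86.3% for Pdk4, 75.2% for Cdkn1a and 66.0% for Txnip, each above that of at least 97.6% of tested genes. For Sesn1 it was 9.10%, below the median of 16.4% over all tested genes, and for Foxo4 it was 11.2%. Over the 5 IR 4A livers Sesn1 was not steady, at 20.8%, above that of 73.7% of tested genes. Foxo4 was at 8.86% there, below the median of 12.3% over all tested genes. Only Foxo4 was thus below the median in both groups, and its SE of 0.09 was the smallest of the members in liver. A change of a given size could be told from spread most easily for Foxo4.

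In eWAT, 9 of the 10 members stood lower in IR 4A, and none passed. The lowest log2 fold changes were those of Pdk4, Angptl4, Txnip and Foxo1, and Foxo3 was level. With edgeR's quasi-likelihood test 0 of 10 members were called, where 0.0121% of the 16476 tested genes were. DESeq2 and limma voom called 0 of the 10 as well, but 1121 and 78 genes in all. At an unadjusted p under 0.05 there was none, against 15.9% of all tested genes. No member's groups were fully apart, which was so for 5.74% of tested genes. The members' median log2 fold change was -0.31, beside -0.08 over all tested genes, of which 40.1% were above 0.

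Foxo1, which in fat restrains the formation of adipocytes, was at 49.6, 68.9, 79.3, 187 and 96.6 CPM in eWAT of WT 1 to 5 and at 90.3, 67.6, 21.5, 35.6 and 91.1 CPM in IR 4A 1 to 5. WT 4 stood far above the rest and IR 4A 3 and 4 below all others, while the remaining 7 libraries mixed. The log2 fold change was -0.65 (SE 0.46, adjusted p = 0.507), and -0.26 without WT 4. Foxo3 was at 73.7, 66.3, 73.5, 80.6 and 91.2 CPM in WT and at 79.4, 90.3, 67.7, 73.3 and 78.8 CPM in IR 4A. Its groups coincided, with a log2 fold change of 0.02 (SE 0.11, adjusted p = 0.945). Foxo4 was at 23.9 to 38.8 CPM in WT and at 21.4 to 31.5 CPM in IR 4A (log2 difference -0.18, SE 0.16, adjusted p = 0.591).

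Neither sestrin differed by genotype in eWAT beyond the spread of its libraries. Sesn1 was at 37.0, 37.7, 39.4, 56.6 and 40.2 CPM in WT and at 37.7, 43.8, 28.5, 36.5 and 40.2 CPM in IR 4A, and 7 of the 10 libraries lay between 36.5 and 40.2 CPM. Sesn3 was at 52.1, 73.0, 47.0, 40.6 and 47.0 CPM in WT and at 46.2, 46.3, 37.9, 47.3 and 47.6 CPM in IR 4A. Here WT 4 was the lowest of the WT group and WT 2 the highest. Their log2 fold changes were -0.17 (SE 0.15, adjusted p = 0.596) and -0.20 (SE 0.15, adjusted p = 0.534).

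Angptl4, Pdk4 and Txnip shared 1 pattern in eWAT, with WT 4 at the top and IR 4A 3 and 4 at the bottom. Angptl4 was at 191, 121, 204, 385 and 174 CPM in WT and at 207, 167, 36.5, 50.5 and 157 CPM in IR 4A (log2 difference -0.80, SE 0.50, adjusted p = 0.455). Pdk4 was at 33.0, 39.0, 43.6, 109 and 26.7 CPM in WT and at 32.2, 38.4, 5.24, 11.3 and 28.5 CPM in IR 4A (log2 difference -1.12, SE 0.57, adjusted p = 0.362). Txnip was at 872, 723, 935, 1738 and 825 CPM in WT and at 882, 842, 263, 347 and 821 CPM in IR 4A (log2 difference -0.69, SE 0.39, adjusted p = 0.408). For all 3 genes IR 4A 1, 2 and 5 lay inside the WT range, WT 4 above all other libraries, and IR 4A 3 and 4 below all others. Without WT 4 the 3 log2 fold changes were -0.47, -0.61 and -0.40, and without IR 4A 3 they were -0.56, -0.86 and -0.49. Klf15 was at 32.3 to 96.6 CPM in WT and at 27.7 to 59.6 CPM in IR 4A (log2 difference -0.20, SE 0.33, adjusted p = 0.773, and 0.16 without WT 4). Cdkn1a was at 19.7 to 71.1 CPM in WT and at 20.3 to 35.1 CPM in IR 4A (log2 difference -0.42, SE 0.36, adjusted p = 0.592, and 0.03 without WT 4). For both Klf15 and Cdkn1a WT 4 was highest too, but WT 2 lay below IR 4A 4. In the authors' deposited table no member passed either. The smallest adjusted p there was 0.161 in liver, for Angptl4 with a log2 fold change of -0.62, and 0.284 in eWAT, for Pdk4 with -1.16.

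**Figure D3:**
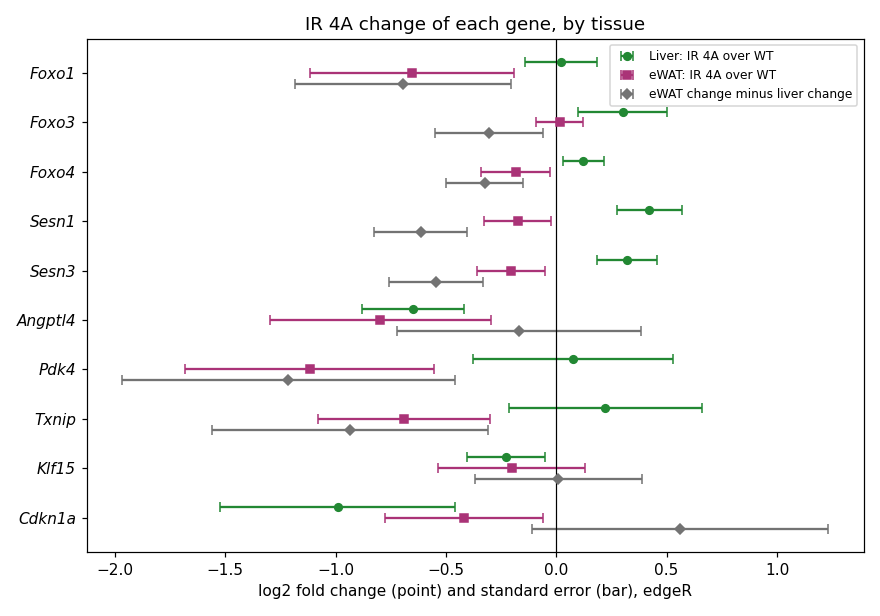
Log2 fold change of IR 4A over WT for each gene in liver (green circles) and eWAT (magenta squares), and the eWAT change minus the liver change (grey diamonds), with standard errors as bars, from edgeR. No value passed the adjusted test, and Sesn1 and Sesn3 are the only members whose difference between tissues had an unadjusted p under 0.05, at -0.62 and -0.55.

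The eWAT values of several members followed the summed level of the 8 adipocyte markers, which was 10146, 8012, 11754, 26101 and 12638 CPM in WT 1 to 5 and 13265, 9389, 2399, 3591 and 11853 CPM in IR 4A 1 to 5. WT 4 was the highest library for 8 of the 10 members and IR 4A 3 the lowest for 8 of the 10, which are also the extremes of the marker sum. In bulk tissue fewer cells of a type and less RNA per cell cannot be told apart. As a ratio to the marker sum (CPM of the gene for each 1000 CPM of markers), Angptl4 was at 18.9, 15.1, 17.3, 14.7 and 13.8 in WT and at 15.6, 17.8, 15.2, 14.1 and 13.3 in IR 4A. Its highest library was then 1.42 times its lowest, where the plain CPM differed by 10.5 times, and the genotypes overlapped. For Txnip the same range shrank from 6.6 to 1.68 times, for Foxo1 from 8.71 to 2.03 times and for Pdk4 from 20.8 to 2.31 times. For Klf15 the range was nearly as wide as before (3.49 and 3.25 times), but per marker the genotypes were fully apart, at 3.55 to 4.03 in WT and at 4.31 to 11.5 in IR 4A, with IR 4A 3 and 4 the highest. The share of all tested genes that are apart on this ratio was not computed. The marker sum that divides it was lowest in IR 4A 3 and 4, so a gene that does not follow the markers rises there. For the other 5 members the range widened: Foxo3 from 1.37 to 9.14 times, Sesn3 from 1.93 to 10.2, Foxo4 from 1.81 to 6.002, Sesn1 from 1.99 to 5.48 and Cdkn1a from 3.6 to 5.01. Other cell markers moved in the same libraries. The 12 progenitor and fibroblast markers summed to 2891 to 7259 CPM in WT and to 852 to 2293 CPM in IR 4A, and the 10 macrophage markers to 426 to 1225 CPM in WT and to 153 to 331 CPM in IR 4A, both fully apart by genotype. The 10 endothelial markers summed to 486 to 1423 CPM in WT and to 199 to 690 CPM in IR 4A. All 3 sums were highest in WT 4 and lowest in IR 4A 3 and 4, and their part in the members' values was not tested.

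With the log2 adipocyte marker sum as a covariate, an alternative chosen after the data were seen, the eWAT log2 fold change of Angptl4 was -0.08 (SE 0.13), of Txnip -0.10 (SE 0.11), of Pdk4 -0.31 (SE 0.28) and of Foxo1 0.07 (SE 0.17). None of the 10 members passed in that fit (adjusted p from 0.202 to 0.855), in which 994 genes were called. The marker sum differs between the genotypes in the same libraries as the members do, so the effects of the covariate and of genotype cannot be fully told apart. The 3 libraries WT 4, IR 4A 3 and IR 4A 4 stood apart in the marker sum, and no correlation over all 10 is therefore given. Within the other seven, r with the marker sum was 0.740 for Angptl4 (exact permutation p = 0.0488, adjusted p = 0.212 over the 10 members) and -0.783 for Sesn3 (exact permutation p = 0.0389, adjusted p = 0.212). By rank these were 0.607 and -0.536 (exact permutation adjusted p = 0.393 for both), and no member passed within the 7 libraries. Pdk4 had r = -0.524 there (exact permutation adjusted p = 0.317), so its likeness to the markers rested on the 3 libraries that stand apart. Without the testis-rich libraries WT 1, WT 2, IR 4A 3 and IR 4A 4, also an added alternative, the eWAT log2 fold changes of Angptl4, Pdk4, Txnip and Foxo1 were -0.51, -0.84, -0.45 and -0.53, and 0 members passed. That left WT 3, 4 and 5 against IR 4A 1, 2 and 5, so WT 4 weighed more, and the marker-poor IR 4A 3 and 4 were gone. Angptl4, for instance, was at 204, 385 and 174 CPM in these WT libraries and at 207, 167 and 157 CPM in these IR 4A libraries. The part of the epididymis and testis transcripts in these values was not tested.

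**Figure D4:**
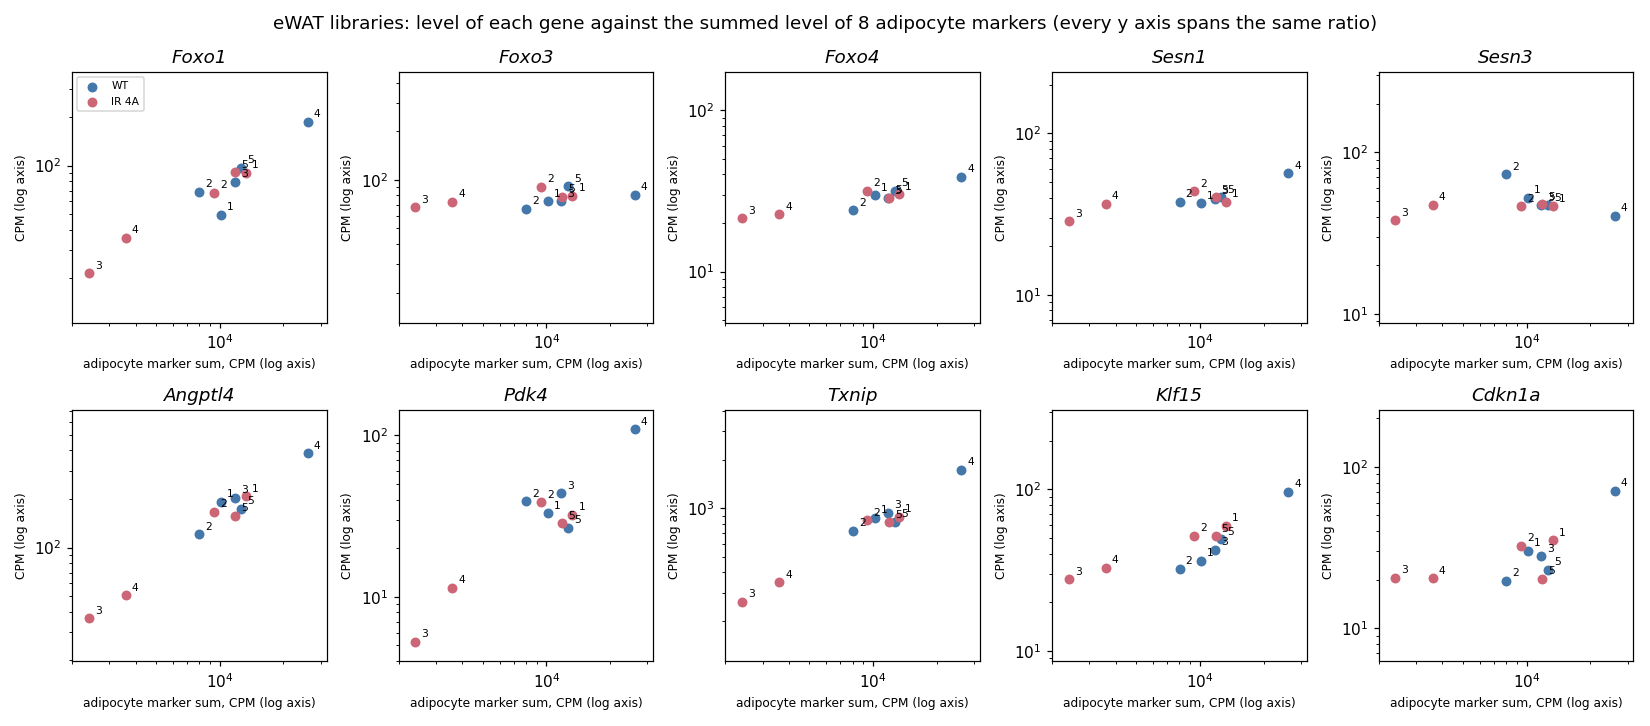
eWAT level of each gene against the summed level of 8 adipocyte markers in the same library, in TMM-scaled CPM, both axes logarithmic and every vertical axis spanning the same ratio. Points are libraries numbered by replicate (blue WT, red IR 4A). Angptl4, Txnip and Foxo1 lie along a rising line from IR 4A 3 (2399 CPM of markers) to WT 4 (26101 CPM), while Foxo3 and Sesn3 are nearly flat.

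Whether the IR 4A change differed between the tissues was tested as an interaction over all 20 libraries and the 14695 genes kept in both tables. No member passed (0 of 10), where 2.41% of genes did, and 2 of 10 members had an unadjusted p under 0.05, beside 22.1% of all tested genes. Sesn1 had the smallest p, with an eWAT minus liver difference of -0.62 (SE 0.21, adjusted p = 0.103 in edgeR's quasi-likelihood test). Its liver value lay above 0 and its eWAT value below. Sesn3 followed with -0.55 (SE 0.21, adjusted p = 0.141), in the same directions. Without liver IR 4A 1 the Sesn1 difference was -0.74 and passed (adjusted p = 0.0211). Larger differences with wider errors were those of Pdk4 (-1.21, SE 0.75), Txnip (-0.93, SE 0.62) and Foxo1 (-0.69, SE 0.49). For the 8 members other than the sestrins the adjusted p ran from 0.281 to 0.992, and Angptl4, lower in IR 4A in both tissues, had a difference of only -0.17 (SE 0.55). The median difference was -0.44 over the members and -0.12 over all tested genes.

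Between the tissues of WT mice the members differed widely. For this comparison both tissues were scaled together, which changes every CPM value relative to those above. The WT eWAT libraries were not fat alone. Scaled within the tissue, their epididymis markers summed to 4551 to 18644 CPM, beside 8012 to 26101 CPM for the adipocyte markers. The part of epididymis and testis transcripts in the tissue differences was not tested. Of the 10 members 7 passed, 3 higher and 4 lower in eWAT, where 77.1% of tested genes passed, 43.2% higher and 33.9% lower, so the members' share was near the background. Klf15 was the most liver-biased, at 153 to 308 CPM in liver and 21.3 to 61.8 CPM in eWAT, with no overlap, and its log2 fold change of eWAT over liver was -2.74 (SE 0.28, adjusted p = 4.46e-08). Cdkn1a was the most eWAT-biased, at 0.896 to 10.3 CPM in liver and 13.0 to 45.5 CPM in eWAT, again with no overlap (log2 fold change 2.29, SE 0.48, adjusted p = 0.000279). Sesn1 was at 14.0 to 17 CPM in liver and 24.6 to 36.2 CPM in eWAT, also apart, and 1.81-fold higher in eWAT (log2 fold change 0.86, SE 0.15, adjusted p = 3.98e-05).

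Txnip was at 46.1 to 517 CPM in liver and 477 to 1113 CPM in eWAT, where only liver WT 5 reached the eWAT range. Its log2 fold change was 1.39 (SE 0.45, adjusted p = 0.0086), and 0.97 without eWAT WT 4, which no longer passed (adjusted p = 0.0543). Angptl4 was lower in eWAT, at 79.9 to 246 CPM against 252 to 447 CPM in liver (log2 fold change -1.15, SE 0.40, adjusted p = 0.013). On these jointly scaled values the FoxO factors all leaned toward liver. Foxo3 was at 45.7 to 105 CPM in liver and 43.8 to 60.1 CPM in eWAT (log2 fold change -0.49, SE 0.17, adjusted p = 0.0156), and Foxo4 at 22.9 to 31.0 CPM against 15.8 to 24.8 CPM (-0.38, SE 0.12, adjusted p = 0.00849). Both calls were lost under upper-quartile scaling (log2 fold changes -0.22 and -0.11, adjusted p = 0.26 and 0.425), which moved the median of all genes from 0.19 to 0.46, and the Foxo3 call was also lost without liver WT 2 (-0.31, adjusted p = 0.0786). Foxo1 had a log2 fold change of -0.53 (SE 0.35, adjusted p = 0.167), and -1.06 without eWAT WT 4, which passed (adjusted p = 0.0054). Pdk4, at 6.79 to 38.7 CPM in liver and 17.6 to 69.7 CPM in eWAT, did not pass (log2 fold change 1.10, SE 0.54, adjusted p = 0.0684) but did without liver WT 5 (1.81, adjusted p = 0.0039). Sesn3 was the least biased (log2 fold change -0.24, SE 0.15, adjusted p = 0.15), and under upper-quartile scaling it stood at 0.02. The side of the FoxO factors, Angptl4 and Sesn3 depended on scaling the tissues together. In CPM scaled within each tissue their WT means were higher in eWAT than in liver. They were 96.3 and 55.3 for Foxo1, 77.0 and 43.2 for Foxo3, and 30.5 and 15.8 for Foxo4. Angptl4 was at 215 and 190, and Sesn3 at 51.9 and 24.6. The other members kept their side.

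Levels of different genes were compared per length of the longest coding transcript, on the jointly scaled CPM per kilobase. In WT liver Angptl4 (94.5 ± 23.3, SD, n = 5), Klf15 (90.2 ± 27.8) and Txnip (89.8 ± 59.7) led, and their ranges overlapped. Far below came Foxo1 (10.5 ± 2.52), Foxo3 (10.4 ± 3.42) and Foxo4 (8.25 ± 0.980), which overlapped one another. Sesn3, Pdk4, Sesn1 and Cdkn1a followed at 4.43 ± 0.868, 4.38 ± 3.81, 4.01 ± 0.322 and 2.21 ± 1.67, each overlapping its neighbour. In IR 4A liver the same 3 genes led, in the order Txnip (107 ± 28.7), Klf15 (78.6 ± 7.88) and Angptl4 (61.4 ± 22.5), all overlapping. In WT eWAT Txnip stood alone at 236 ± 90.1, above Angptl4 at 42.5 ± 18.9 with no overlap. Klf15 (13.5 ± 6.61), Cdkn1a (10.8 ± 6.33), Pdk4 (9.41 ± 6.05) and the FoxO factors and Sesn1 (6.32 to 7.39) then overlapped in a chain, with Sesn3 last at 3.75 ± 0.922. In IR 4A eWAT Txnip (147 ± 67.8) and Angptl4 (24.6 ± 14.7) kept the first places. With the median transcript length the first 3 genes in liver and the first 2 in eWAT were the same, but other places shifted. In WT liver Foxo1 went from place 4 to 7, Sesn3 from 7 to 5 and Foxo3 from 5 to 4. In WT eWAT Sesn3 went from place 10 to 4, Foxo3 from 6 to 3 and Klf15 from 3 to 7.

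**Figure D5:**
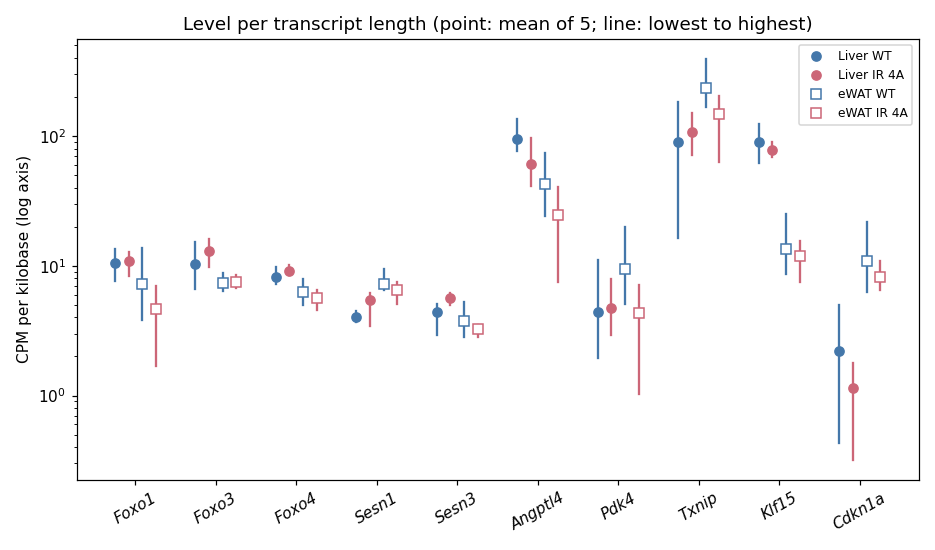
Level of each gene per kilobase of its longest coding transcript, in jointly scaled CPM per kilobase on a log axis, for liver (filled circles) and eWAT (open squares) of WT (blue) and IR 4A (red) mice. Points are means of 5 libraries and lines run from the lowest to the highest library. Txnip in WT eWAT (236) is the top value, Klf15 is at 90.2 in WT liver and 13.5 in WT eWAT, and Cdkn1a is lowest in liver.

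Within the FoxO family, per length, Foxo1 made up 35.9 ± 1.74% of the summed mRNA in WT liver and 32.8 ± 2.82% in IR 4A liver (SD, n = 5). Foxo3 made up 35.1 ± 4.59% and 39.3 ± 2.05%, and Foxo4 29.0 ± 5.19% and 27.9 ± 3.62%. These shares hold for the longest transcripts only. With the median transcript length Foxo3 led in liver, at 28.1 CPM per kilobase in WT beside 10.5 for Foxo1 and 11.6 for Foxo4, and at 35.4 in IR 4A beside 10.9 and 12.9. In eWAT the Foxo1 share spread from 22.1 to 47.4% in WT and from 13.0 to 33.9% in IR 4A. Foxo6, the remaining family member, was at 0.0776 CPM in WT liver and 0.727 CPM in WT eWAT before TMM scaling.

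Other genes of the pathway were counted in lists that were drawn up with earlier results of these data known, and some genes stand in more than 1 list. No gene of any list passed the IR 4A test in either tissue, over 8 lists. Of 33 other FoxO targets that insulin represses, 18 were above 0 and 15 below in liver (median 0.05), and 5 had an unadjusted p under 0.05, a share no larger than the 18.1% of all tested genes. The smallest p-values were those of Acvr2b, an activin receptor (log2 fold change 0.87, adjusted p = 0.101), Bnip3, which marks mitochondria for removal (0.55, adjusted p = 0.126), and Bcl2l11, which encodes the death protein BIM (0.54, adjusted p = 0.21). In eWAT 13 of 31 such genes were above 0 (median -0.07), led by Klf9 (-0.66, adjusted p = 0.302), Trib1 (0.38, adjusted p = 0.31) and Pnpla2, the first lipase of fat breakdown (-0.996, adjusted p = 0.349). These medians lay close to those of all tested genes, 0.0048 and -0.08.

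Of the genes that insulin induces, 13 of 14 were above 0 in liver, beside 51.0% of all tested genes, with a median of 0.48. None passed, but 5 of the 14 had an unadjusted p under 0.05, all above 0, beside 18.1% of all tested genes. Scd1, the desaturase of fat synthesis, had a difference of 1.19 on the log2 scale (adjusted p = 0.133) and Fasn, fatty acid synthase, 0.53 (adjusted p = 0.153). In eWAT 12 of 16 such genes were below 0, with a median of -0.58, led by Acaca (-0.93, adjusted p = 0.362), Pparg (-1.04, adjusted p = 0.382) and Pnpla3 (-0.99, adjusted p = 0.39). Pparg is 1 of the adipocyte markers whose sum was low in IR 4A 3 and 4. The kinases and partners that control FoxO were mixed in liver (14 of 32 above 0, median -0.02) and mostly below 0 in eWAT (27 of 31, median -0.20). The eWAT list was led by the PI3-kinase subunits Pik3cb (-0.67, adjusted p = 0.203) and Pik3r1 (-0.83, adjusted p = 0.26).

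In the lists of other signals to the members no gene passed in liver, and the part of these signals was not tested. An unadjusted p under 0.05 was reached by 4 of 17 glucocorticoid targets and 4 of 18 p53 targets. It was reached by 2 of 14 ChREBP targets and 1 of 24 PPAR targets of fatty acid use, beside 18.1% of all tested genes. Medians in liver were -0.12 for the glucocorticoid targets (11 below 0), 0.02 for the PPAR targets, 0.11 for the ChREBP targets and -0.02 for the p53 targets. In eWAT they were -0.41 for 18 glucocorticoid targets (15 below 0), -0.39 for 22 PPAR targets (18 below 0), -0.13 for 13 ChREBP targets and -0.05 for 22 p53 targets. Relatives of the members had a median of 0.35 in liver (16 of 19 above 0), among them Angptl2 (0.75, adjusted p = 0.106) and Cdkn1c (0.88, adjusted p = 0.177). For the difference between tissues 1 list gene passed, Angptl7, with -4.16 (SE 0.82, adjusted p = 0.0202). It was at 9.52 ± 3.72 CPM in WT eWAT and 0.990 ± 0.494 CPM in IR 4A eWAT (SD, n = 5), beside 0.130 and 0.282 CPM before TMM scaling in WT and IR 4A liver, so of the angiopoietin-like genes it was not Angptl4 that passed.

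Finally, for each member the genes most like it across the 10 libraries of a tissue were found, by Pearson r of log2 CPM among 11115 other genes in liver and 14904 in eWAT. These r share their libraries, depth and composition and are given as a description. In liver the nearest were Il6ra (0.952) and Esrrg (0.916) for Foxo1, and Siah2 (0.964) and Mup1 (0.959) for Angptl4. Phlda1 (0.930) was among the nearest 2 of Sesn1, and Sesn3 was nearest to Rnf130 (0.960) and Sh2d4a (0.959). No gene was among the nearest 2 of more than 1 member there. In eWAT Adgrf5 was the nearest gene to Txnip (0.996) and second for Angptl4 (0.993), after Fcor (0.994), which is known as a FoxO1 corepressor of adipose tissue. Foxo1 was nearest to Vcl (0.988) and Eif3l (0.987), and Sesn3 to Xpr1 (0.991).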

How the data were processed

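The members and all gene and marker lists were chosen with earlier results of these data known. Levels and tests start from the deposited estimated counts, which the authors give as whole numbers. Salmon 1.8.0, DESeq2 1.32.0 and build GRCm39 were used, per the submitters' processing notes. A second set of deposited values, on a log2 scale, served only as a check (lowest rank correlation with log2 CPM 0.995 in liver, 0.987 in eWAT). Per the file headers, the authors' own DESeq2 tables list for each gene a mean signal, a log2 fold change, a test score and a p-value, raw and adjusted.

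Repeated identifiers were dropped (83 in liver, 208 in eWAT). Genes were kept by filterByExpr (minimum count 10, total 15), scaled by TMM and tested, two-sided, with edgeR 4.0.16 (quasi-likelihood, R 4.3.3), Benjamini-Hochberg adjustment over all tested genes and a threshold of 0.05. Liver and eWAT were fitted apart, and the WT tissues and the interaction in a fit of all 20 libraries. Log2 CPM used a prior count of 2. Libraries of a group differed beyond sampling noise (chi-square/df at least 12.5). All 10 members are named whatever their result, of each list at most 3 genes with the smallest p, and for likeness the nearest 2; some genes that meet these rules are not reported here. Transcript lengths come from GRCm38. The test was checked on simulated data. Alternatives tried were 2 other scalings (RLE, upper quartile), 2 other filters, DESeq2 1.42.0, limma 3.58.1 voom, a 20-library fit, 1 surrogate variable (sva 3.50.0), a block for the replicate number, a threshold of 0.1 and leaving out each library. Figures used matplotlib 3.10.9.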

Additional observations from a re-analysis of the deposited data

Results flagged for a closer look

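Of 40 combinations of a member and a group, 9 held a highest or lowest library whose gap to its neighbour was over 0.71 of the group's range, the 95% critical value of Dixon's test for 5 samples. Chance gives this in about 1 in 20 groups. Of these, 5 were eWAT WT 4, the library with the highest adipocyte marker sum: Sesn1 at 56.57 CPM, Pdk4 at 108.9 CPM, Txnip at 1738 CPM, Klf15 at 96.58 CPM and Cdkn1a at 71.06 CPM, each above the other WT libraries. Liver WT 5 stood apart for Angptl4 at 269.8 CPM and Pdk4 at 23.36 CPM, both above the rest of their group. Liver IR 4A 1 stood below its group for Sesn1 at 7.851 CPM. In eWAT, Sesn3 in IR 4A 3 stood below its group at 37.86 CPM.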

How the results depend on the processing

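For the IR 4A changes and their difference between tissues, the count of members called was 0 under every setting except 3: it was 1 in liver (Sesn1) and 1 for the difference between tissues (Sesn1) without liver IR 4A 1, so that leaving out a library gave 0 to 1 in each, and 2 in eWAT with 1 surrogate variable (Angptl4 -1.16, adjusted p = 0.046, and Txnip -0.93, adjusted p = 0.0483). For WT tissues (7) it was 6 with upper-quartile scaling (4 higher, 2 lower), 8 with the replicate block across tissues and 6 to 9 leaving out a library. Sesn3 also passed there without liver WT 5, eWAT WT 2 or eWAT WT 4, and Pdk4 under upper-quartile scaling and without eWAT WT 5 or eWAT IR 4A 3. Upper-quartile scaling moved the split of higher against lower genes from 6348 and 4978 to 7643 and 3904 for WT tissues, and from 108 and 246 to 194 and 166 for the difference between tissues, whose median of all genes moved from -0.12 to -0.02.

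The number of genes called in liver (1) was 407 with DESeq2, 4 with voom, 49 in the 20-library fit, 18 at an adjusted p of 0.1, 0 without WT 1 and WT 3, and 0 to 143 leaving out a library. In eWAT (2) it was 1121 with DESeq2, 78 with voom, 295 in the 20-library fit, 1461 with a surrogate variable, 994 with the adipocyte covariate, 1 with upper-quartile scaling or the stricter filter, 0 with no filter or without the 4 testis-rich libraries, and 0 to 6 leaving out a library. For the difference between tissues (354) leaving out a library gave 70 to 729. The cause was not tested.

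The labels do not say whether replicate numbers pair the libraries. Deviations of same-numbered libraries had r from -0.0723 to 0.077 between genotypes in liver and from -0.726 to 0.67 in eWAT. Between liver and eWAT, r ran from -0.0611 to 0.000525 in WT and from -0.103 to 0.0407 in IR 4A. Such values cannot show whether libraries share an animal or a batch. With the replicate number as a block, 3 genes were called in liver, 0 in eWAT and 0 for the tissue difference (blocking within or across tissues), so that Angptl7 was not called. Of the members only Pdk4 changed its call, for WT tissues, where it passed with the same sign as before (1.34, adjusted p = 0.0397).

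Values that changed sign, none of them past the threshold, were in liver, with a surrogate variable, Foxo1 -0.090, Pdk4 -0.18 and Txnip -0.12, and without WT 1 and WT 3, Foxo1 -0.072, Pdk4 -0.35 and Txnip -0.18. Leaving out a library gave Foxo1 -0.068 to 0.12, Pdk4 -0.21 to 0.78 and Txnip -0.047 to 0.65. In eWAT they were Klf15 0.19 with voom, Foxo3 -0.013 with a surrogate variable, Sesn3 0.068 without the testis-rich libraries, and Foxo1 0.072, Foxo4 0.054, Sesn1 0.040, Klf15 0.37 and Cdkn1a 0.11 with the adipocyte covariate. Leaving out a library gave Foxo3 -0.046 to 0.086, Klf15 -0.33 to 0.16 and Cdkn1a -0.56 to 0.032. For the difference between tissues it gave Angptl4 -0.43 to 0.21 and Klf15 -0.13 to 0.45, and for WT tissues Sesn3 was 0.020 with upper-quartile scaling. Depth limits mainly Cdkn1a in liver, with 9 to 111 counts a library, beside at least 82 for every other member there.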
